A study of Mus musculus with 27 samples.

Results

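The question was whether the radioprotectant CBLB502 altered intestinal gene expression at 24 h in the same way in mice given 6 Gy as in unirradiated mice. The comparison was the interaction, that is the log2 difference between 6 Gy plus CBLB502 and 6 Gy alone, minus the log2 difference between CBLB502 alone and control. It was made on 12 of the 27 intestinal RNA libraries of the study, with 4 groups of 3 libraries assigned from the labels. All mice were wildtype C57BL/6 males of 6 to 8 weeks. The control group was labelled as having had no treatment. The second group had 0.2 mg/kg CBLB502 into the peritoneum without radiation, the third 6 Gy of 60Co gamma rays, and the last 6 Gy with the same dose of CBLB502. All 3 treated groups were sampled at 24 h. The time between CBLB502 and the 6 Gy exposure is not given in the sources used here. For 15 Gy the design text gives CBLB502 at 0.5 h before exposure. That text also names a PBS group as the control for CBLB502, whereas the labels of the control libraries name no vehicle. The labels do not say whether the 3 libraries of a group came from separate mice, so each p-value measures the spread between libraries only.

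CBLB502 is a shortened flagellin made as a drug against radiation injury. It binds Toll-like receptor 5, which signals through MyD88 to NF-kB and induces chemokines, antimicrobial proteins and survival genes. In the gut, Toll-like receptor 5 is known from the epithelium and from myeloid cells, and flagellin given by injection also acts strongly on the liver. The absorptive enterocytes of the small intestine change their set of transporters from duodenum to ileum, with iron uptake at the duodenal end and vitamin B12 and bile acid uptake at the ileal end.

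The 12 libraries held 57.4 to 86.9 M counts each, and 11118 genes with an FPKM of at least 1 in at least 3 of the 27 libraries were tested. FPKM is a fragment count scaled to the gene's length and to the library's mapped total. All 19 brush-border hydrolase genes were tested, none was at 0 throughout a group, and together they took 3.54% to 5.98% of counts in the 12 libraries, beside the label of intestine. CPM is counts per 1 M of the library size after TMM scaling, which corrects for differences in composition. A marker score is the mean over the tested genes of a list of log2 CPM, centred on each gene's mean over all 27 libraries. Of 18 lists, the 6 libraries of 6 Gy at 24 h lay fully above the other 6 in the scores of 5 (exocrine pancreas, fibroblasts, colonic position, Paneth cells and myeloid cells). They lay fully below in 3 (brush border, clock genes and adipose tissue, the last with 2 tested genes). A score weighs each tested gene alike and can differ from the summed share of counts. Paneth genes took 0.1871% to 0.311% of counts in control and 0.1649% to 0.2595% with 6 Gy. Colonic genes took 0.01968% to 0.04903% and 0.03805% to 0.04473%, so both of these shares overlapped. Myeloid genes took 0.002589% to 0.00311% and 0.004593% to 0.01148%, which did not overlap. CBLB502 alone lay apart from the other 9 libraries in 3. It was higher in the proximal intestine and adipose scores and lower in that of B and plasma cells, of which 3 genes were tested. In the ileal and colonic scores it overlapped control. The exocrine pancreas score, over 26 of 30 listed genes, was -2.03 ± 0.03 (SD, n = 3) in control and -2.03 ± 0.20 with CBLB502 alone. It was 4.34 ± 3.43 at 6 Gy and 5.39 ± 1.69 at 6 Gy with CBLB502. Of the 30 genes, 17 were at 0 in all control libraries and 15 in all libraries of CBLB502 alone, among them Prss2 and Cpb1. With 6 Gy 0 of them were, and with both agents 2, Prss1 and Cela3a. The 30 genes took 0.262% to 0.504% of counts in control and 0.361% to 0.449% with CBLB502 alone. They took 0.332% to 1.61% with 6 Gy and 0.493% to 0.840% with both, and both ranges overlapped that of control. Genes at 0 in control and with CBLB502 alone could pass the filter on FPKM only through other groups. The gap in the pancreas score is thus set in part by that filter. The fibroblast score, over 5 of 18 genes, was -0.75 ± 0.89 in control, -1.93 ± 0.34 with CBLB502 alone, 2.58 ± 0.29 at 6 Gy and 2.72 ± 0.34 with both. Its 18 genes took 0.0268% to 0.0283% of counts in control, 0.0168% to 0.0264% with CBLB502 alone, 0.0409% to 0.0496% with 6 Gy and 0.0417% to 0.0510% with both. Col5a2 and Lum were at 0 in all controls and in all libraries of CBLB502 alone, and Dpt and Col5a1 in the latter only. The score of genes known to be high in duodenum and jejunum, over 18 of 18 genes, was -0.13 ± 0.12 in control and 0.73 ± 0.43 with CBLB502 alone. At 6 Gy it was -0.11 ± 0.24, and with both agents -0.13 ± 0.10. The median log2 difference of these genes with CBLB502 alone was -0.0007, and 6 of the 18 rose and 3 fell by edgeR. The rises of Cybrd1 (7.56), Pdx1 (5.38) and Slc11a2 (3.87) were large, while Bco1 (-3.72) and Lct (-1.09) fell. The 18 genes took 4.90% to 5.96% of counts in control, 4.72% to 5.55% with CBLB502 alone, 4.31% to 5.13% with 6 Gy and 4.06% to 4.96% with both, so their summed level was not highest with CBLB502 alone. In replicate 3 of CBLB502 alone, mitochondrially encoded genes took 24.2% of counts. In the other 11 libraries the share was at most 17.4%.

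**Figure D1:**
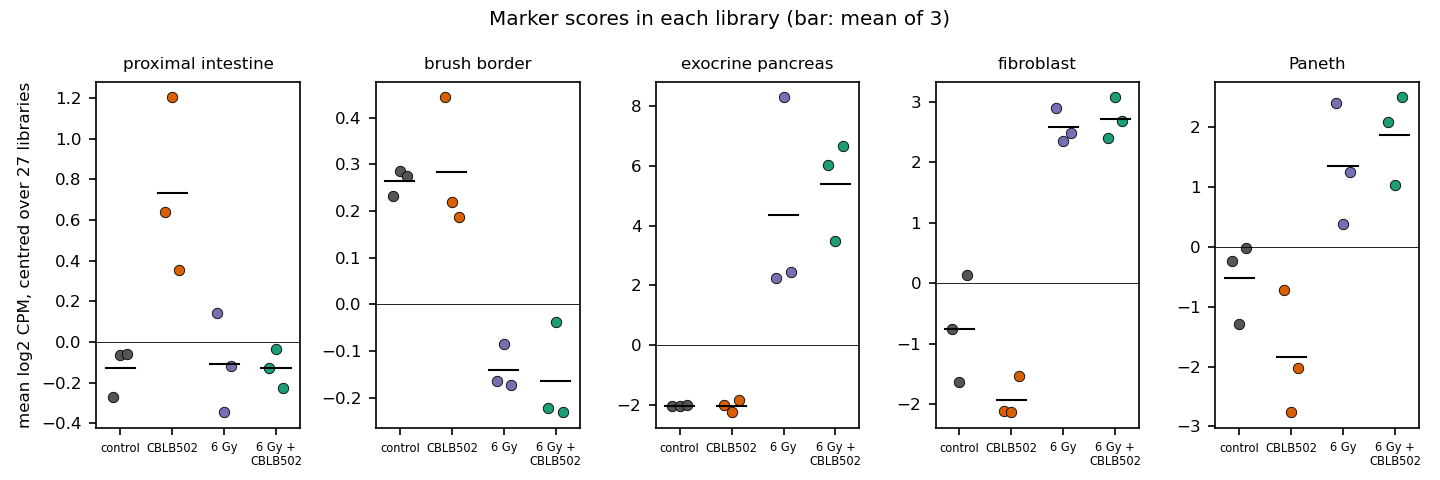
Marker scores (mean log2 CPM of the tested genes of each list, centred over 27 libraries) in each of the 12 libraries, by group, with a bar at the mean of 3. The pancreas and fibroblast scores are higher in all 6 libraries of 6 Gy than in the other 6, and the score of proximal intestine is highest in the 3 libraries of CBLB502 alone. The gap in the pancreas score is set in part by the filter on FPKM.

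CBLB502 did not have the same effect with 6 Gy as without it for 36 of the 11118 genes (0.324%) at an adjusted p under 0.05 (edgeR quasi-likelihood test, Benjamini-Hochberg adjustment). The interaction was positive for 27 genes (0.243%) and negative for 9 (0.0809%). The smallest adjusted p was 0.0169, and 1262 genes had an unadjusted p under 0.05. In 24 other fits, which left out 1 library or changed a setting, 19 of the 36 genes kept their call in at least 12 and 17 in fewer. The positive genes were lower with CBLB502 alone than in control. They include the sterol exporters Abca1 and Abcg5, the vitamin B12 receptor Cubn, the carotene-cleaving enzyme Bco1 and the eosinophil chemokine Ccl24. The negative genes were higher with CBLB502 alone, among them the fucosyltransferase Fut2, the iron importer Slc11a2 and the nuclear receptor Nr0b2. In RNA of whole tissue, fewer cells of a type and less RNA per cell cannot be told apart.

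The arms of the interaction were unequal in size. Without radiation, CBLB502 changed 638 genes (5.74%), of which 276 rose (2.48%) and 362 fell (3.26%), by the edgeR test. With 6 Gy it had 0 called genes by that test, with 303 at an unadjusted p under 0.05 and a smallest adjusted p of 0.465. The 303 are fewer than a threshold of 0.05 would pass if no gene differed, so the test was cautious in this arm. The reason was not tested, and the 0 calls are not read as no effect with 6 Gy. DESeq2 called 7 genes there and limma on log2(FPKM + 1) called 9. The count of 638 became 176 and 286 without control 1 and 2, and 351 and 189 without replicates 1 and 2 of CBLB502 alone. The count of 0 became 2 and 1 without replicates 2 and 3 of 6 Gy, and 1 without replicate 2 of 6 Gy with CBLB502. The median absolute log2 difference over all tested genes was 0.26 without radiation and 0.14 with 6 Gy, and the median standard error was 0.24 in both arms.

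The 638 genes were chosen on the unirradiated arm, so their size in that arm is set by the choice. The 2 arms share no library. The 276 genes that rose without radiation had a median log2 difference of 1.05 there and of 0.07 with 6 Gy, where 170 of them (61.6%) were above 0. The 362 that fell had a median of -0.90 without radiation and of -0.06 with 6 Gy, where 230 (63.5%) were below 0. Over all 11118 genes, 52.9% had the same sign in both arms. Of the 36 interaction genes, 35 were called with CBLB502 alone. The exception was Zfpm1, with an adjusted p of 0.0641 by edgeR.

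**Figure D2:**
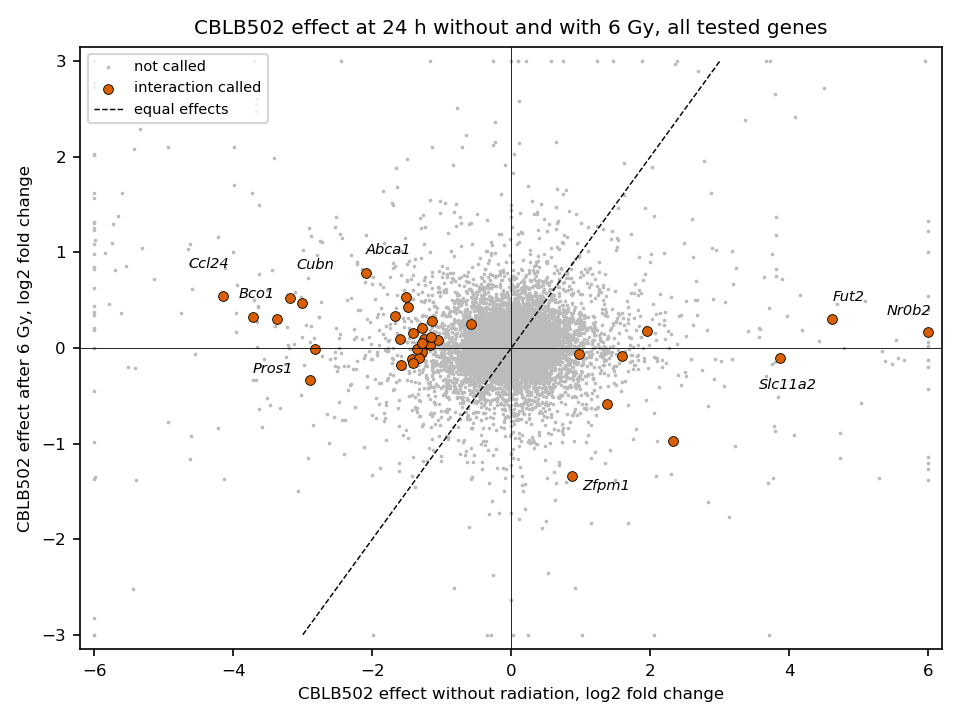
Each point is 1 of the 11118 tested genes, with the log2 fold change of CBLB502 against control on the x axis and that of 6 Gy plus CBLB502 against 6 Gy on the y axis. The 36 genes with a called interaction are in orange, and by that choice they lie off the dashed line of equal effects. Most lie near the horizontal line, and Zfpm1 (-1.34), 2010308F09Rik (-0.97) and Abca1 (0.78) lie farthest from it. 72 genes beyond 6 on the x axis or 3 on the y axis are drawn at the border, Nr0b2 among them.

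Among the 36 genes, the libraries of CBLB502 alone and of control did not overlap for any, against 21.9% of all tested genes whose groups did not overlap. All 3 libraries of CBLB502 alone lay below all 3 controls for the 27 positive genes, against 11.4% of all tested genes, and above them for the 9 negative genes, against 10.5%. This comparison is part of the interaction that chose the genes, so nothing is read from these counts. With 6 Gy, the groups overlapped for 31 of the 36, and 10.8% of all tested genes did not overlap. Acp6, Mapre2 and Mro lay above in all 3 libraries with CBLB502 (5.92% of all genes) and Denn2b and Zfpm1 below (4.84%). The median log2 difference of the 27 positive genes was -1.42 without radiation and 0.11 with 6 Gy, and that of the 9 negative genes was 1.95 and -0.08. The arm with 6 Gy is also part of the interaction that chose the genes. The overlap counts with 6 Gy and these medians are thus set in part by that choice.

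The genes that rose with CBLB502 alone are given first. Fut2, a fucosyltransferase of the epithelial glycan coat (chr7:45648591-45666394, minus strand, GRCm38), was at 2.33, 1.87 and 1.46 CPM in the 3 controls. With CBLB502 alone it was at 40.9, 71.8 and 26.8 CPM. It was at 0.795, 0.862 and 1.26 CPM with 6 Gy and at 0.590, 1.70 and 1.34 CPM with both. The 3 libraries of CBLB502 alone were far above the other 9, and the 2 irradiated groups overlapped. The log2 difference was 4.62 ± 0.50 (SE) without radiation and 0.31 ± 0.47 with 6 Gy, and the interaction was -4.31 ± 0.66 with an adjusted p of 0.0169 by edgeR.

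Slc11a2, the transporter that brings ferrous iron into the enterocyte (chr15:100387898-100424092, minus strand), was at 41.1, 43 and 49.1 CPM in control and at 293, 1559 and 91.1 CPM with CBLB502 alone. It was at 87.5, 52.9 and 63.3 CPM with 6 Gy and at 68.2, 66.2 and 54.7 CPM with both. All 3 libraries of CBLB502 alone were above the other 9, but they differed widely among themselves, with replicate 2 far above the rest. That library also had the highest score of proximal intestine, 1.20, against 0.64 and 0.35 in the other 2. Slc11a2 is one of the genes averaged in that score, so the score is not a separate observation. The interaction was -3.97 ± 0.80 (log2, SE), with an adjusted p of 0.0313 by edgeR.

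Nr0b2, a nuclear receptor without a DNA-binding domain that restrains bile acid synthesis (chr4:133553376-133556536, plus strand), had no count in any control library. It was at 7.93, 7.08 and 2.04 CPM with CBLB502 alone, 4.71, 2.57 and 4.04 CPM with 6 Gy and 4.89, 5.33 and 2.50 CPM with both. The 3 treated groups overlapped, and all 9 of their libraries were above the controls. Against a floor of 3 counts over the 3 control libraries together (0.0145 CPM), the mean was at least 391-fold higher with CBLB502 alone, at least 260-fold higher with 6 Gy and at least 292-fold higher with both. This floor covers counting error only. The adjusted p of the interaction was 0.0238 by edgeR.

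Zfpm1, a cofactor of GATA transcription factors (chr8:122282141-122337251, plus strand), was the one gene of the 36 whose larger difference lay in the irradiated arm. It was at 27.2, 34 and 20.9 CPM in control, 56.4, 56.2 and 37.7 CPM with CBLB502 alone and 97.4, 95.2 and 91.9 CPM with 6 Gy. With both it was at 37.3, 45.6 and 29.6 CPM. The 3 libraries of 6 Gy alone were the highest of the 12 and close to each other, and those with CBLB502 lay well below them. The log2 difference was 0.87 ± 0.27 without radiation and -1.34 ± 0.28 with 6 Gy, for an interaction of -2.21 ± 0.39 (SE, adjusted p = 0.0233 by edgeR).

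Oit1, a secreted protein of the FAM3 family, was at 189, 194 and 233 CPM in control and at 439, 413 and 354 CPM with CBLB502 alone. It was at 177, 167 and 168 CPM with 6 Gy and at 174, 157 and 162 CPM with both. The libraries of CBLB502 alone were above all others, and the irradiated groups overlapped. The interaction of Oit1 was -1.03 ± 0.22 (log2, SE), with an adjusted p of 0.0433 by edgeR.

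The other 4 negative genes were Lyve1, Enpp1, Denn2b and 2010308F09Rik. Lyve1, a hyaluronan receptor of lymphatic endothelium, was at 2.27 ± 0.763 CPM (SD, n = 3) in control, 8.78 ± 2.37 with CBLB502 alone, 2.10 ± 0.392 with 6 Gy and 2.37 ± 0.540 with both. Its interaction was -1.78 ± 0.36 (log2, SE). Of 12 endothelial genes 3 were tested, and only Lyve1 was called. Enpp1, which hydrolyses extracellular nucleotides, was at 3.92 ± 1.34, 11.9 ± 2.70, 13.3 ± 1.03 and 12.6 ± 2.27 CPM in the same order, so that all treated groups were above control. Denn2b, whose DENN domain activates Rab proteins, was at 2.89 ± 1.03, 7.49 ± 2.57, 21 ± 0.842 and 14 ± 1.96 CPM. The RIKEN transcript 2010308F09Rik was at 0.629 ± 0.144, 3.17 ± 1.12, 0.860 ± 0.180 and 0.438 ± 0.281 CPM. The interactions of these 3 genes were -1.67, -1.96 and -3.3 on the log2 scale. 2010308F09Rik overlaps Gm16481 on the opposite strand, whose interaction was -1.9 ± 0.62 with an adjusted p of 0.244 by edgeR. The strand setting of the counting is not stated, so the reads of both genes cannot be told apart.

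**Figure D3:**
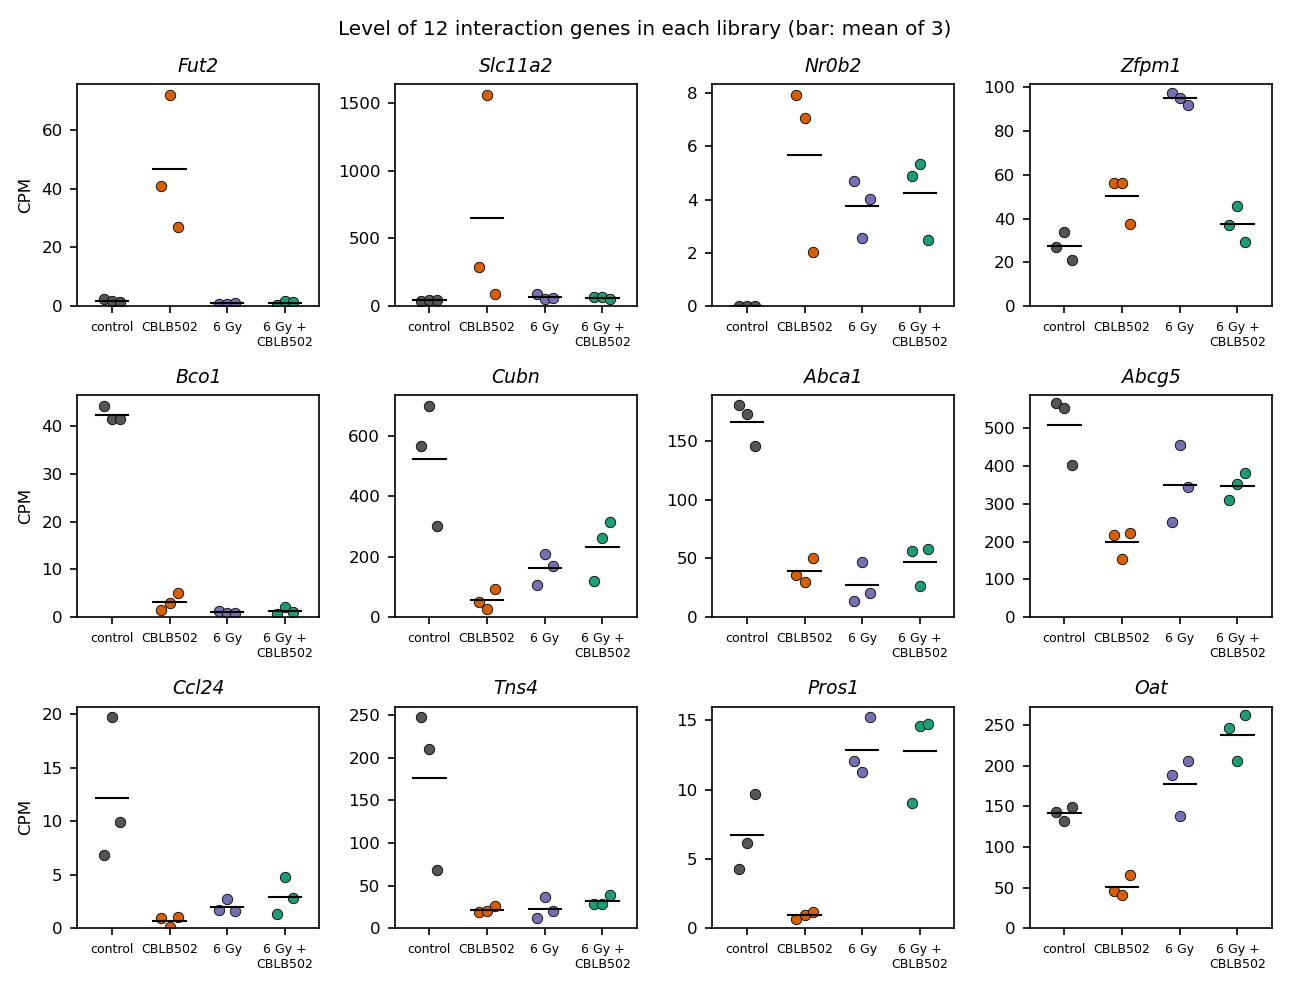
CPM (linear axis from 0) of 12 of the 36 genes in each library of the 4 groups, with a bar at the mean of 3. Fut2, Slc11a2 and Nr0b2 are higher with CBLB502 alone than in control, and Bco1, Cubn, Abca1, Abcg5, Ccl24, Tns4, Pros1 and Oat are lower, while the irradiated groups overlap for all but Zfpm1.

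Among the genes that fell with CBLB502 alone, 4 handle sterols, vitamin B12 or carotene. The upstream sequence of 5 genes of absorption and bile acid control is shown, since these are the called genes of the fat uptake, retinoid and ileal lists and differ in direction. The sequences are from RefSeq (GRCm38.p6), 250 bases before the start used there, in the direction of the gene. By the gene positions given in this report, the stretch of Bco1 runs into the gene and that of Cubn stops short of it. Capitals mark the motifs searched on both strands, the E-box CACGTG, the GATA motif AGATAA, the GC box GGGCGG and the CDX motif TTTATGG, or their reverse complements.
Abca1 (chr4:53159896-53160145, minus strand): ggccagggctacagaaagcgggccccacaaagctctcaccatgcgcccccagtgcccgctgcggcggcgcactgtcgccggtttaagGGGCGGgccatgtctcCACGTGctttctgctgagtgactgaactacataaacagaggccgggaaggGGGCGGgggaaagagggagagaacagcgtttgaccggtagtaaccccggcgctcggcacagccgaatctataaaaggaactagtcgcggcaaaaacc
Abcg5 (chr17:84683012-84683261, minus strand): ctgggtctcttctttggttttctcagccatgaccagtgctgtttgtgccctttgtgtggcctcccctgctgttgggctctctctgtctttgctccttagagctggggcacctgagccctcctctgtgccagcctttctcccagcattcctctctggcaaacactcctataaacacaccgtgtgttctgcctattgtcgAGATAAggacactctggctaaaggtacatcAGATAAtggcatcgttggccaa
Bco1 (chr8:117095615-117095864, plus strand): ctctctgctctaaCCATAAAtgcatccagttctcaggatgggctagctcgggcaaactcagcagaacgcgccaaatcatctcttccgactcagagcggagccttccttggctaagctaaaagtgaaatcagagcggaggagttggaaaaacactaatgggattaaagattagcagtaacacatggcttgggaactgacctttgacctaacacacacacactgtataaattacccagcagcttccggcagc
Cubn (chr2:13491877-13492126, minus strand): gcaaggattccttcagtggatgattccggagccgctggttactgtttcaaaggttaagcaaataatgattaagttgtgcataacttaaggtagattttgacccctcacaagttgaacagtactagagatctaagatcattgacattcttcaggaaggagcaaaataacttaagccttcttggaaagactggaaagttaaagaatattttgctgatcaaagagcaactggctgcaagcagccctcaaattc
Nr0b2 (chr4:133553126-133553375, plus strand): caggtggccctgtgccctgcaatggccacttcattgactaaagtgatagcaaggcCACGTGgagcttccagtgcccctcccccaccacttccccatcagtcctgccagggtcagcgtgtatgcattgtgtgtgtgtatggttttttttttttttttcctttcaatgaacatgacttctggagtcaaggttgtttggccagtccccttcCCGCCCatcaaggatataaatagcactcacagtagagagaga
The sequence of Cubn holds none of the motifs searched. An E-box and a GC box are present upstream of both Abca1 and Nr0b2, whose interactions had opposite signs. Of the 36 genes, 25 matched the promoter table. The E-box was found in 3 of them and in 6.02% of all 32851 promoters, the GATA motif in 1 and in 9.99%, the GC box in 14 and in 32.7%, and the CDX motif in 5 and in 2.43%. The STAT motif TTCCNGGAA was found in 1 (Pros1) and in 0.913% of all promoters, and the HNF4 motif CAAAGTCCA in 0 and in 0.384%. The NF-kB and HNF1 motifs were found in 0, against 0.356% and 0.00913% of all promoters. A match is a description of these letters only.

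Abca1, which exports cholesterol to lipoproteins (chr4:53030787-53159895, minus strand), was at 180.0, 173 and 145 CPM in control and at 36.3, 30.3 and 50.5 CPM with CBLB502 alone. It was at 13.6, 47.1 and 21.1 CPM with 6 Gy and at 56.2, 26.3 and 57.8 CPM with both. All 9 treated libraries were below the controls, and the irradiated groups overlapped. The log2 difference was -2.09 ± 0.42 without radiation and 0.78 ± 0.41 with 6 Gy, and the interaction was 2.87 ± 0.59 (SE, adjusted p = 0.0353 by edgeR).

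Abcg5, which with Abcg8 pumps plant sterols and cholesterol back to the lumen (chr17:84658234-84683011, minus strand), was at 565, 553 and 403 CPM in control and at 217, 154 and 224 CPM with CBLB502 alone. It was at 251, 455 and 346 CPM with 6 Gy and at 309, 352 and 382 CPM with both. The libraries of CBLB502 alone were the lowest of the 12, and those of 6 Gy overlapped the controls. The interaction was 1.35 ± 0.27 (log2, SE), with an adjusted p of 0.0313 by edgeR. Abcg8 overlaps Abcg5 on the opposite strand. It also fell with CBLB502 alone (-1.17 ± 0.33, adjusted p = 0.0401 by edgeR), and its interaction of 1.31 ± 0.46 was not called (adjusted p = 0.276). With no stated strand setting, reads of the pair cannot be told apart.

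Cubn, the ileal receptor for vitamin B12 bound to intrinsic factor (chr2:13276338-13491813, minus strand), was at 566, 699 and 300.2 CPM in control and at 50.0, 29 and 93 CPM with CBLB502 alone. It was at 108, 209 and 169 CPM with 6 Gy and at 121, 262 and 316 CPM with both. The libraries of CBLB502 alone were the lowest, and only 1 irradiated library, of 6 Gy with CBLB502, lay above the lowest control. The interaction was 3.71 ± 0.74 (log2, SE), with an adjusted p of 0.0313 by edgeR. Bco1, which splits beta-carotene into retinal (chr8:117095854-117133720, plus strand), was at 44.2, 41.4 and 41.5 CPM in control and at 1.56, 3.05 and 5.02 CPM with CBLB502 alone. It was at 1.35, 0.959 and 0.877 CPM with 6 Gy and at 0.611, 2.23 and 1.16 CPM with both. All 9 treated libraries were far below the controls, and the irradiated groups overlapped. The interaction was 4.05 ± 0.85 (adjusted p = 0.0411 by edgeR).

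The next group of positive genes is metabolic. Oat, the mitochondrial ornithine aminotransferase, was at 143, 132 and 149.9 CPM in control and at 45.7, 41.4 and 65.3 CPM with CBLB502 alone. It was at 188, 138 and 206 CPM with 6 Gy and at 247, 206 and 262 CPM with both. The libraries of CBLB502 alone were the lowest of the 12 and those of 6 Gy with CBLB502 the highest on average. Its interaction was 1.91 ± 0.36 (log2, SE, adjusted p = 0.0238 by edgeR). Oat overlaps Fgfr2 in position on the same strand. Slc7a8, a carrier of neutral amino acids on the basolateral side, was at 869 ± 58.5 CPM (SD, n = 3) in control, 356 ± 33 with CBLB502 alone, 418 ± 67.9 with 6 Gy and 433 ± 45.5 with both. Me2, the mitochondrial malic enzyme, was at 598 ± 40.3, 287 ± 22.4, 279.9 ± 37 and 298 ± 10.8 CPM in the same order. In both genes the 3 treated groups were all below control. Their interactions were 1.34 ± 0.27 and 1.15 ± 0.25.

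Amdhd2, which deacetylates N-acetylglucosamine 6-phosphate, had an interaction of 1.21 ± 0.23 (log2, SE), and Agmo, which cleaves ether lipids, one of 1.24 ± 0.21. Kdsr, a reductase of sphingolipid synthesis, had 1.7 ± 0.36. Acp6, a mitochondrial phosphatase of lysophosphatidic acid, had 0.84 ± 0.18, and Lhpp, a phosphatase of phosphohistidine, had 2.05 ± 0.44. For each of these 5 genes the 3 libraries of CBLB502 alone were below all controls.

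A chemokine, a blood protein and a lysosomal protein were also among the positive genes. Ccl24, the chemokine eotaxin-2 that draws eosinophils (chr5:135569937-135573049, minus strand), was at 6.82, 19.7 and 9.91 CPM in control and at 0.970, 0.0948 and 1.01 CPM with CBLB502 alone. It was at 1.72, 2.74 and 1.64 CPM with 6 Gy and at 1.35, 4.76 and 2.80 CPM with both. All 9 treated libraries were below the controls, and CBLB502 alone was below both irradiated groups. The interaction was 4.69 ± 0.89 (log2, SE, adjusted p = 0.0238 by edgeR). Pros1, the anticoagulant protein S, was at 4.24, 6.17 and 9.68 CPM in control and at 0.647, 0.989 and 1.20 CPM with CBLB502 alone. It was at 12, 11.2 and 15.2 CPM with 6 Gy and at 9.01, 14.6 and 14.7 CPM with both. Pros1 was lowest with CBLB502 alone, and 6 Gy was above control in all 3 libraries. Its interaction was 2.81 ± 0.51 (adjusted p = 0.0233 by edgeR). Plbd1, a phospholipase B-like lysosomal protein, was at 112 ± 48.3, 15.1 ± 3.37, 58.5 ± 10.3 and 46.5 ± 8.43 CPM, with an interaction of 2.56 ± 0.48.

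Cytoskeletal and adhesion genes were also among those that fell. Tns4, a tensin of focal adhesions (chr11:99065678-99089306, minus strand), was at 249, 211 and 68.6 CPM in control and at 19.4, 20.5 and 25.9 CPM with CBLB502 alone. It was at 12.4, 36.9 and 20.4 CPM with 6 Gy and at 28.9, 28.6 and 39.3 CPM with both. All 9 treated libraries were below the controls. The interaction was 3.48 ± 0.64 (log2, SE, adjusted p = 0.0233 by edgeR). Pdlim1, which links actin fibres through a PDZ and a LIM domain, was at 157 ± 22.7 CPM in control and at 49.6 ± 11.8, 54.3 ± 8.65 and 68.3 ± 10.6 CPM in the treated groups, with 2.0 ± 0.33. Mapre2, which binds the growing ends of microtubules, was at 29.8 ± 1.18, 13.5 ± 0.212, 22.6 ± 0.454 and 27.6 ± 3.44 CPM, with 1.43 ± 0.23 and an adjusted p of 0.0169 by edgeR. Its 3 libraries of CBLB502 alone were nearly equal, at 13.4, 13.3 and 13.7 CPM. Dock1, an activator of Rac, had 1.35 ± 0.27.

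The other 7 positive genes, named here only to account for the called genes, had interactions of 1.22 to 3.67 on the log2 scale. They were Tmem144 (1.57), Mro (1.5), the mitochondrial pseudouridine synthase Trub2 (1.31), the carboxypeptidase inhibitor Lxn (1.22), the transcription elongation factor Tcea3 (1.26), Myrfl (1.27) and Ccdc152 (3.67). Trub2 and Lxn overlap Coq4 and Gfm1 on the opposite strand. Those partners had interactions of -0.45 and -0.16, neither of them called. Ccdc152 lies opposite Selenop, the plasma selenium carrier, whose level was 7106 ± 2161 CPM in control against 1.19 ± 0.256 CPM for Ccdc152. The interaction of Selenop was 1.85 ± 0.45 with an adjusted p of 0.0935 by edgeR. With no stated strand setting, the reads of both genes cannot be told apart. In all, 10 of the 36 genes overlap another gene with a mean count of at least 10. They include Lhpp with Fgfr2, Plbd1 with Gm44401 and Slc11a2 with Gm5475.

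The libraries of 6 Gy alone lay apart from the controls for 26 of the 36 genes, mostly on the side seen with CBLB502 alone. This is a description with no test. Both groups are part of the interaction that chose the genes, and control is shared with the unirradiated arm. Nothing is therefore read from these counts. Of the 27 positive genes, 17 had all 3 libraries of 6 Gy alone below control, against 21.6% of all tested genes, and 2, Pros1 and Tcea3, had them above (25.2% of all). The other 8 overlapped control. Of the 9 negative genes, 5 were above control with 6 Gy alone (Denn2b, Enpp1, Nr0b2, Slc11a2 and Zfpm1), 2 were below (Fut2 and Oit1) and 2 overlapped. Over all genes, 46.8% did not overlap between these 2 groups, and the groups also differ in the pancreas and fibroblast scores given above. The TMM factors were 0.857 to 0.860 in control and 1.22 to 1.35 with 6 Gy, so CPM between these groups also rests on that scaling. They were 0.71 to 0.97 with CBLB502 alone and 1.23 to 1.41 with both, so the arms of the interaction rest on it too. The part of the scores and of the scaling in each gene's difference was not tested gene by gene.

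CBLB502 at 15 Gy and 24 h was measured in 6 other libraries that share none with the interaction, so its values for the 36 genes are separate measurements. This comparison was added after the data were seen. It called 0 of the 11118 genes by edgeR, with 867 at an unadjusted p under 0.05 and a smallest adjusted p of 0.167, while DESeq2 called 63. Of the 36 genes, 11 had an unadjusted p under 0.05, none of them called. The median log2 difference was -0.33 for the 27 positive genes and 0.29 for the 9 negative ones, in each case with the sign seen without radiation and smaller. The unirradiated arm helped to choose these genes, so a smaller size elsewhere is set in part by that choice. The effect at 15 Gy was not tested against that without radiation. Of the 27, 19 (70.4%) had that sign, and of the 9, 6 (66.7%), beside 61.0% of all genes. All 3 libraries with CBLB502 were below those with 15 Gy alone for 10 of the 27 (5.76% of all genes), among them Abca1, Cubn, Tns4 and Oat. Of the 9, Nr0b2 and 2010308F09Rik were above (6.31% of all genes) and Fut2 was below. Abca1 had the largest difference of the 27, -2.15 ± 0.42 (SE), against -2.09 ± 0.42 without radiation and 0.78 ± 0.41 with 6 Gy. The test of the CBLB502 effect at 6 Gy against that at 15 Gy called 0 genes by edgeR, with 696 at an unadjusted p under 0.05 and a smallest adjusted p of 0.297. DESeq2 called 27. Without replicate 2 of 15 Gy the counts of 0 became 93 for CBLB502 at 15 Gy and 22 for this difference. Without replicate 1 of 15 Gy with CBLB502 they became 3 and 2, and the difference had 2 without replicate 2 of 6 Gy and 1 without replicate 2 of 6 Gy with CBLB502.

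**Figure D4:**
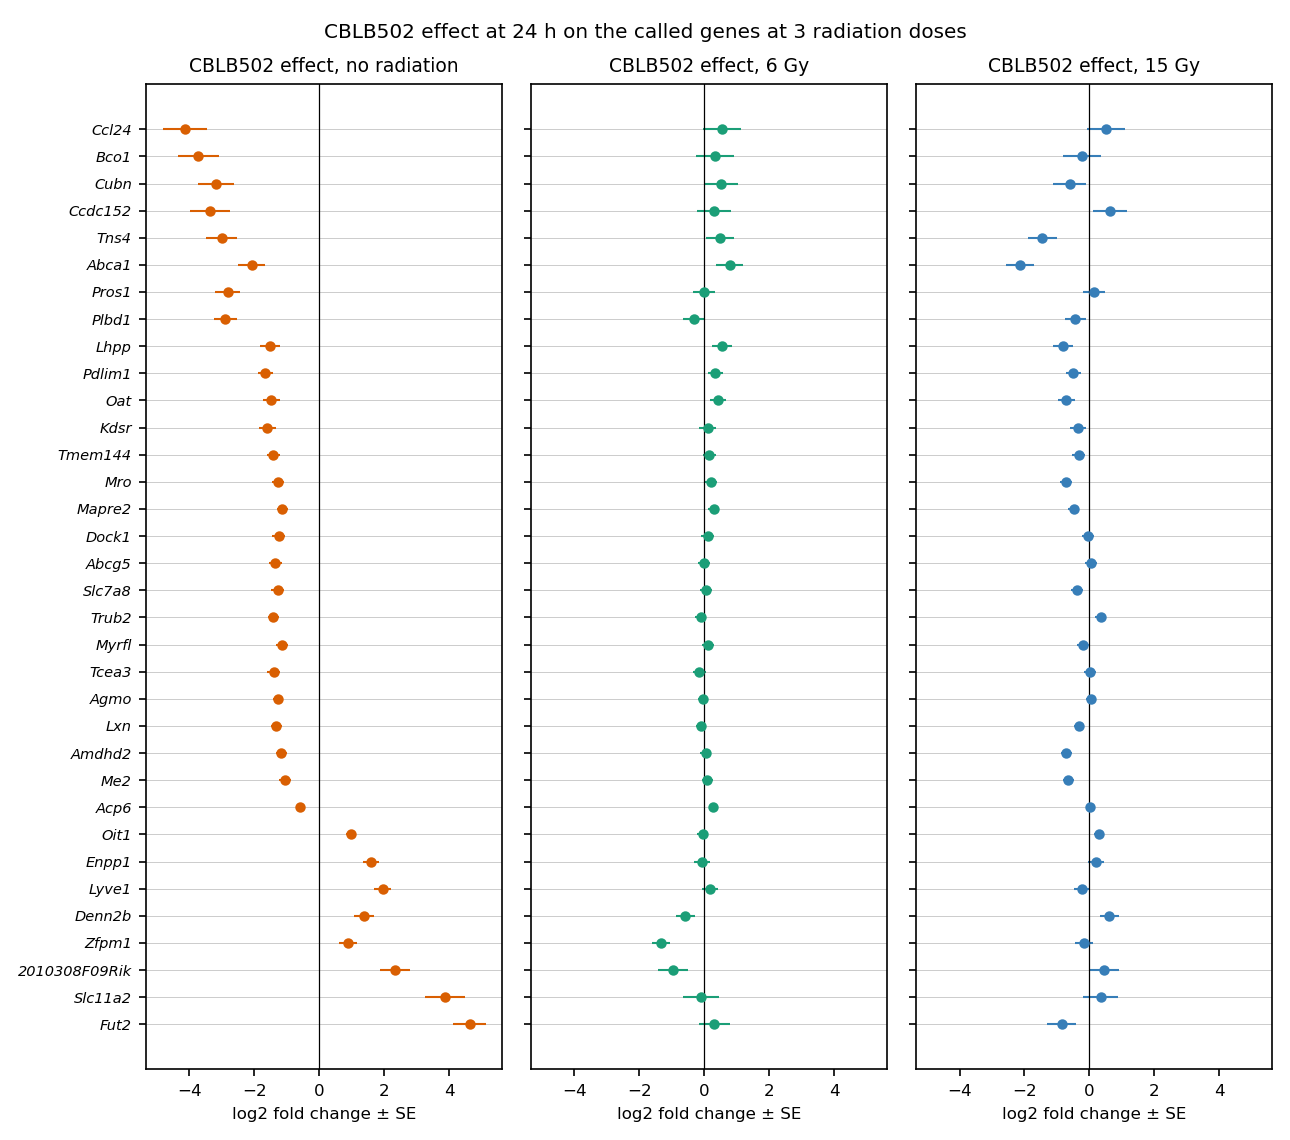
Log2 fold change of CBLB502 at 24 h, with its standard error, for 34 of the 36 genes without radiation, at 6 Gy and at 15 Gy, ordered by the interaction. Nr0b2, which had no count in control, is not among them. The values without radiation lie away from 0, whereas most of those at 6 Gy and 15 Gy lie near it. The genes were chosen by the difference between the values without radiation and at 6 Gy.

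Gene lists of pathways and cell types were described by counts and medians. The median interaction over all 11118 genes was 0.02. By edgeR, 0.324% of all tested genes had a called interaction, and with CBLB502 alone 2.48% rose and 3.26% fell. With a share of called interactions this low, 0 calls in a list is not read as an equal response in both arms. Iron absorption had 10 tested genes, and Slc11a2 was the 1 with a called interaction. Without radiation 4 of the 10 rose, namely Slc11a2, the ferric reductase Cybrd1, the iron exporter Slc40a1 and the ferritin heavy chain Fth1. Cybrd1 was at 1.00 ± 0.680 CPM (SD, n = 3) in control and 191 ± 253 with CBLB502 alone, then 8.25 ± 10.4 with 6 Gy and 3.73 ± 1.79 with both. Its interaction was -8.71 ± 2.04 with an adjusted p of 0.0698 by edgeR, which missed the threshold. The median interaction of the list was -1.16. These genes other than Slc11a2 were named after their values were seen. Cybrd1, Slc40a1 and Slc11a2 are also on the list of duodenal and jejunal genes, as is the duodenal transcription factor Pdx1, also chosen by its value, which was at 0.778 ± 0.553 CPM in control and 32.3 ± 23 with CBLB502 alone. That list had 1 negative call (Slc11a2) and 1 positive (Bco1) among 18 genes and a median of -0.07. Among 12 tested ileal genes Cubn was positive and Nr0b2 negative, with a median of 0.62.

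Sterol and fatty acid synthesis had 0 called interactions among 21 tested genes and a median of -1.05. Of the 21, 6 rose with CBLB502 alone and 0 were called with 6 Gy, by edgeR. Elovl6, which lengthens fatty acids, was at 45.7 ± 16.1 CPM in control, 193 ± 107 with CBLB502 alone, 71.5 ± 19.8 with 6 Gy and 91.6 ± 21.3 with both. Its interaction was -1.72 ± 0.63 (adjusted p = 0.301). Fat uptake and lipoprotein assembly had 2 positive calls, Abcg5 and Abca1, among 21 genes, and a median of -0.01. Without radiation 6 of these genes fell and 1, the fatty acid binding protein Fabp1, rose. Sugar and amino acid transport had 1 positive call, Slc7a8, among 16 genes and a median of 0.58. Retinoid metabolism had the 1 call of Bco1 among 12 genes and a median of -0.30.

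Cytochrome P450 and conjugation genes had 0 called interactions among 27, with 5 that fell with CBLB502 alone. Cyp3a25 came closest, at 598 ± 188 CPM in control, 103 ± 21.8 with CBLB502 alone, 429 ± 144 with 6 Gy and 376 ± 119 with both, with an interaction of 2.35 ± 0.55 (adjusted p = 0.0698 by edgeR). MHC class II had 0 called interactions among 9 genes and a median of 1.09. Of the 9, 6 fell with CBLB502 alone. H2-Eb1, which encodes a class II beta chain, was at 272 ± 4.53 CPM in control and 51.9 ± 20.2 with CBLB502 alone, and at 123 ± 108 and 72.9 ± 12.9 in the irradiated groups. Enteroendocrine genes had 0 called interactions among 13 and a median of -0.70, and 6 rose with CBLB502 alone. Of these, the granin Scg2 had an interaction of -1.22 ± 0.39 (adjusted p = 0.234 by edgeR).

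Flagellin sensing and NF-kB signalling had 0 called interactions among 18 tested genes and a median of -0.19. Of these 18, 0 were called for CBLB502 in either arm, by edgeR. Irak2, a kinase that carries Toll-like receptor signals, was at 61.5 ± 1.74 CPM in control and 62.4 ± 11.3 with CBLB502 alone, and at 65 ± 8.08 with 6 Gy and 35.5 ± 3.19 with both. With 6 Gy its log2 difference was -0.88 ± 0.18 (SE, unadjusted p = 6.6e-05 and adjusted p = 0.465 by edgeR). All 3 libraries with CBLB502 lay below those of 6 Gy alone. The interaction of Irak2 was -0.9 ± 0.25 with an adjusted p of 0.156 by edgeR. Tlr5 itself was below the filter on FPKM and was not tested. Complement and acute-phase genes had 0 called interactions among 8, and C2 came closest with 1.76 ± 0.42 (adjusted p = 0.0721). Chemokines and cytokines had 0 among 13, interferon-stimulated genes 0 among 38 and direct p53 targets 0 among 26, with medians of 0.44, 0.13 and 0.25. Crypt stem cell and Wnt genes had 0 among 12, mitosis genes 0 among 10 and Paneth cell genes 0 among 18. The medians of these lists were 0.35, 0.22 and 1.41. Since 0.324% of all tested genes were called, 0 calls in lists this small are not read as a result.

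The antimicrobial proteins Reg3b and Reg3g rose with CBLB502 alone and had interactions that were not called. Reg3b, a lectin that binds bacteria, was at 10090, 5266 and 11430 CPM in control and at 35690, 43650 and 27610 CPM with CBLB502 alone. It was at 2485, 2643 and 1511 CPM with 6 Gy and at 5539, 3961 and 2909 CPM with both. In both arms all 3 libraries with CBLB502 were above those without. The log2 difference was 2.0 ± 0.45 without radiation and 0.9 ± 0.43 with 6 Gy, where only the former was called, and the interaction was -1.09 ± 0.61 (SE, adjusted p = 0.518 by edgeR). Reg3g had differences of 1.73 ± 0.46 and 1.19 ± 0.46 and an interaction of -0.54 ± 0.64 (adjusted p = 0.804). Of 16 tested antimicrobial genes, Fut2 was the 1 with a called interaction.

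The genes read first for radiation damage and renewal gave no called interaction. The p53 target Cdkn1a had -0.14 ± 0.26 (log2, SE) and Mdm2, the inhibitor of p53, had -0.11 ± 0.24. The proliferation marker Mki67 had 0.28 ± 0.83, the crypt gene Olfm4 1.04 ± 1.69 and the revival stem cell marker Clu 2.38 ± 1.01. The oxidase Duox2 had 2.11 ± 1.35, the nitric oxide synthase Nos2 1.95 ± 1.82 and the acute-phase protein Saa1 2.84 ± 2.54. The adjusted p of these 8 genes ran from 0.379 to 0.935 by edgeR. Lgr5 was below the filter. The standard errors of Olfm4, Clu, Duox2, Nos2 and Saa1 were all above 1 on the log2 scale, so a 2-fold difference was not detectable in them at this spread between libraries. Those of Mki67, Cdkn1a and Mdm2 were smaller, but a call at a 2-fold interaction is not shown for them either. Me2, with a standard error of 0.25, was called at 1.15 with an adjusted p of 0.0433 by edgeR, close to the threshold.

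The number of called interactions depended on single libraries. With control 1 or control 2 left out it was 12 in each case, and with control 3 left out it was 82. Without replicate 1, 2 or 3 of CBLB502 alone it was 1, 11 and 59. Without those of 6 Gy it was 2, 44 and 10, and without those of 6 Gy with CBLB502 it was 26, 11 and 0. In the last case 954 genes had an unadjusted p under 0.05 by edgeR, and DESeq2 was not run on that subset. None of the 36 genes changed sign in any of these 12 fits or in the other 12 alternatives run. They were called on these same libraries, which leaves a sign little room to turn. Fut2 kept its call in 23 of the 24, with a highest adjusted p of 0.0672, and Mapre2 and Pdlim1 in 21. Abca1 and Cubn kept theirs in 12, Nr0b2 and Abcg5 in 11, Bco1 in 10 and Slc11a2 in 8. Lhpp kept its call in 5 and in 0 of the 12 fits that left out a library. Ccdc152, Kdsr, Myrfl and Tcea3 kept theirs in 4 and Acp6 in 3. With the score of proximal intestine as a covariate 2 genes were called, Fut2 and Mapre2, with the fibroblast score 10 and with the pancreas score 30, of which 27 were among the 36. The proximal score includes the called genes Slc11a2 and Bco1. Among the 12 libraries it was highest with CBLB502 alone, so as a covariate it takes up part of the interaction by construction. Nothing is therefore read from the count of 2.

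**Figure D5:**
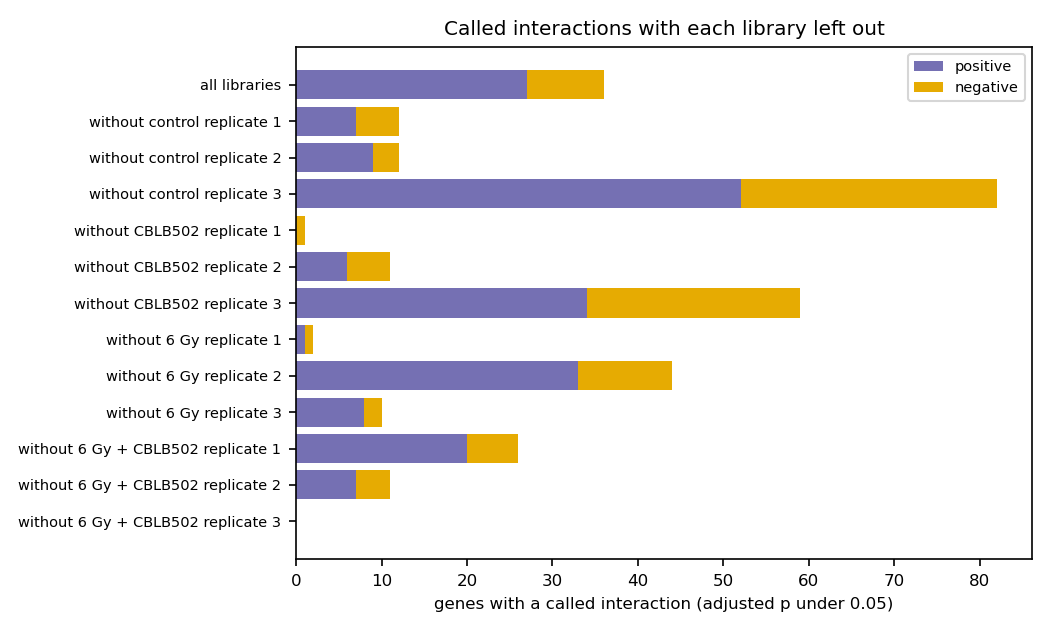
Number of genes with a called interaction (x axis) when each of the 12 libraries is left out in turn, split into positive and negative values. The count runs from 0 without replicate 3 of 6 Gy with CBLB502 to 82 without replicate 3 of control, against 36 with all libraries.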

How the data were processed

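RNA of mouse intestine was measured in 27 libraries, of which 12 enter the interaction. The deposited table holds whole-number counts per gene, made by the authors and used as deposited, and FPKM values, computed by the authors with 0.0001 where the count was 0. The submitters' processing notes name Bowtie 0.12.2, HISAT2 2.0, StringTie 1.3.0 and mm8. The counter, the strand setting and the annotation release were not stated in the sources used here. Gene positions are on GRCm38, since 51957 of the 55141 IDs present in GENCODE vM21 (94.2%) matched it in start and end.

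The edgeR 4.0.16 package in R 4.3.3 fitted the counts (quasi-likelihood test, TMM scaling, all 27 libraries in 9 groups, Benjamini-Hochberg adjustment over 11118 genes, called under 0.05). The standard error of an edgeR log2 value was not taken from the fit. It was computed as the absolute log2 value over the square root of the F value of its test. CPM values are per 1 M of the TMM-scaled library size, and shares of counts are of the unscaled total. The fit was tested on simulated data. Alternatives used limma 3.58.1 and DESeq2 1.42.0. Replicates of the 12 libraries differed by more than counting error (144 to 1266 in chi-square over its degrees of freedom), and the common dispersion of 0.0961 is a coefficient of variation of 31.0%. Named genes were the 10 largest called interactions in each direction with a group mean FPKM of at least 5 and a summed count above 3 in every group (4 negative genes qualified), called genes with 3 counts or fewer in a group, called or closest members of each list, and 12 fixed genes. Of the called genes, 1 is not reported here. The other called genes and some list members were named after their values were seen. The genes and lists were chosen with earlier results of these data known.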

Additional observations from a re-analysis of the deposited data

Results flagged for a closer look

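The effect of CBLB502 differed between mice given 6 Gy and unirradiated mice for 36 genes, by the edgeR test of the interaction itself, and 35 of them are given here. All values here are log2 interactions, and each is a difference of 2 differences of 3 libraries against 3. The 9 negative ones were Nr0b2 at -11.58 (a fitted value that depends on the prior count, since control had none), Fut2 at -4.31, Slc11a2 at -3.97, 2010308F09Rik at -3.3, Zfpm1 at -2.21, Denn2b at -1.96, Lyve1 at -1.78, Enpp1 at -1.67 and Oit1 at -1.03. Positive values above 2 were those of Ccl24 at 4.69, Bco1 at 4.05, Cubn at 3.71, Ccdc152 at 3.67, Tns4 at 3.48, Abca1 at 2.87, Pros1 at 2.81, Plbd1 at 2.56 and Lhpp at 2.05. Pdlim1 had 2.0, Oat 1.91, Kdsr 1.7, Tmem144 1.57, Mro 1.5 and Mapre2 1.43. Dock1 had 1.35, Abcg5 1.35, Slc7a8 1.34, Trub2 1.31, Myrfl 1.27, Tcea3 1.26, Agmo 1.24, Lxn 1.22, Amdhd2 1.21, Me2 1.15 and Acp6 0.84. Some of these calls may be false by the adjustment used, and leaving out 1 of the 12 libraries gave 0 to 82 calls.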

How the results depend on the processing

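The interaction count of 36 was 21 with no filter on low values, 34 with median-ratio scaling, 46 and 27 with limma on log2(FPKM + 1) and log2(FPKM + 0.1), 25 with voom weights, 11 with the compared groups alone, 31 without pancreatic and mitochondrial genes and 158 with DESeq2. With the proximal score as covariate it was 2, with the pancreatic score 30 and with the fibroblast score 10, the last chosen after seeing the data. The proximal score includes called genes and was highest with CBLB502 alone among the 12 libraries. Lower counts with that covariate are thus set in part by the choice of score. The count of 638 for CBLB502 without radiation became 350 with no filter, 349 and 391 with limma, 56 alone, 302 with voom, 104 with the proximal score, 1129 with DESeq2 and 412 without the 6 libraries of 6 Gy, a fit also added after seeing the data. The count of 0 with 6 Gy became 9 with limma on log2(FPKM + 1), 1 with the groups alone and 7 with DESeq2. At 15 Gy the count of 0 became 1 with no filter and 63 with DESeq2, and that of 6 Gy against 15 Gy became 27 with DESeq2. Leaving out 1 library gave 0 to 82 for the interaction and 176 to 779 without radiation, with 176 and 286 without controls 1 and 2 and 351 and 189 without CBLB502 libraries 1 and 2. It gave 0 to 2 with 6 Gy, 0 to 93 at 15 Gy and 0 to 22 for 6 Gy against 15 Gy, the highest of the last pair both without 15 Gy library 2.

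With the replicate number as a block, 21 interactions were called, 20 of them among the 36, beside 545 genes for CBLB502 without radiation and 1 for CBLB502 at 6 Gy. The numbers do not pair the libraries, since same-numbered libraries of different groups had correlations of -0.063 to 0.175 and 5 of 12 libraries correlated best with their own number.

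Signs turned only for genes that were not called, and the called genes had been chosen on these same libraries. With the proximal score, Duox2 had -0.039, Saa1 -1.07, Nos2 -1.62, Olfm4 -0.39 and Mki67 -0.39. With the fibroblast score, Olfm4 had -0.96 and Mki67 -0.53, and with limma on log2(FPKM + 1) Saa1 had -1.37. Without control 3, Olfm4 had -0.36 and Mki67 -0.17. Without library 3 of CBLB502, Cdkn1a had 0.061 and Mdm2 0.046. Mki67 had -0.09 without 6 Gy library 2 and -0.10 without library 1 of 6 Gy with CBLB502. Leaving out 1 library gave -0.36 to 2.33 for Olfm4, -0.31 to 0.061 for Cdkn1a, -0.29 to 0.046 for Mdm2 and -0.17 to 0.82 for Mki67. The cause of these changes was not tested.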
